A study of Mus musculus with 24 samples.

Results

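The HOX genes are the 36 of 17094 genes in the expression table whose symbol is Hox followed by a cluster letter from a to d and a paralog number. They were taken by symbol alone and comprise 11 Hoxa, 8 Hoxb, 9 Hoxc and 8 Hoxd genes. HOX genes encode homeodomain transcription factors that lie in clusters. Along each cluster they are switched on in the order in which they stand, so that genes at one end mark anterior and genes at the other end mark posterior and distal parts of the embryo. Genes of the same paralog number in different clusters derive from a common ancestor and often act together. In the limb, the posterior genes of the Hoxa and Hoxd clusters pattern the skeleton from its proximal to its distal segments, and mesenchymal cells taken from different sites keep much of their HOX expression in culture.

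Bulk RNA sequencing was carried out on primary chondrocytes of wild-type (WT) mice, the cells that form cartilage matrix, which had grown in the lower chamber of transwell plates. The 8 groups, of 3 libraries each, were co-culture with IL-1β, untreated co-culture, normal culture with IL-1β and untreated normal culture, each collected at 72 h and at 36 h after IL-1β was added. Co-culture means that primary dermal fibroblasts shared the plate without contact, and the fibroblasts were not sequenced here; IL-1β is an inflammatory cytokine, used at 10 ng/ml from 24 h after the cells had attached. The labels give cartilage as the tissue and no joint or other site, age or sex, and do not give the medium of the co-cultures. They do not say whether the libraries of a group came from separate animals or cultures, so the p-values below measure the spread between libraries, which may be technical.

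Levels are in FPKM, fragment counts scaled for transcript length and library size, as the authors deposited them. The FPKM values of a library summed to between 438242 and 506621, between 11335 and 11607 genes reached 1 FPKM, and the read depth behind them is unknown, so no counting error can be given. Libraries of 1 group correlated at 0.994 to 0.9987 across genes, and no pair was identical. The residual SD of log2(FPKM + 1) was 0.168 in normal culture with IL-1β at 72 h and 0.119 in co-culture with IL-1β at 72 h, against 0.0853 to 0.0994 in the other groups. Of 14 chondrocyte markers, 12 were tested and Matn1 and Snorc stayed under 1 FPKM in every library. The 12 skeletal muscle markers summed to between 43.8 and 147.3 FPKM per library at 72 h and between 228 and 322 FPKM at 36 h, with Pax7 and Myf5 under 1 FPKM throughout. The 10 macrophage and myeloid markers summed to between 99.2 and 158.4 FPKM at 72 h and between 53.4 and 83.0 FPKM at 36 h, with Ptprc under 1 FPKM throughout. These bulk values cannot tell fewer cells of a type from less RNA per cell.

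The Hoxa genes lie on mouse chromosome 6 (GRCm38 chr6:52155590-52260880, minus strand), the Hoxb genes on chromosome 11 (chr11:96271457-96354012, plus strand), the Hoxc genes on chromosome 15 (chr15:102921103-103036852, plus strand) and the Hoxd genes on chromosome 2 (chr2:74668310-74765142, plus strand), by GENCODE vM21. Within them, Hoxa10 spans chr6:52231197-52240854, Hoxa11 chr6:52242106-52245810, Hoxd8 chr2:74704615-74707933, Hoxc13 chr15:102921103-102928814 and Hoxc10 chr15:102966796-102971893. The 250 bases before the annotated start are printed here for 3 genes. These are among the genes that were lower at 72 h than at 36 h in all 4 settings of culture and IL-1β. They are Hoxa10 and Hoxa11, which were also lower with IL-1β in all 4 of its comparisons, and Hoxd8, the most abundant Hoxd gene. Hoxd9 and Hoxd11, not printed, were lower with time in all 4 settings too, and Hoxd9 also with IL-1β in all 4 comparisons. The printed windows are RefSeq sequences on GRCm38.p6, written 5′ to 3′ on the strand of the gene, at chr6:52240855-52241104 (minus), chr6:52245811-52246060 (minus) and chr2:74704365-74704614 (plus). Capitals mark the matches to GGGNNNNNCC, a loose form of the NF-κB motif.
Hoxa10: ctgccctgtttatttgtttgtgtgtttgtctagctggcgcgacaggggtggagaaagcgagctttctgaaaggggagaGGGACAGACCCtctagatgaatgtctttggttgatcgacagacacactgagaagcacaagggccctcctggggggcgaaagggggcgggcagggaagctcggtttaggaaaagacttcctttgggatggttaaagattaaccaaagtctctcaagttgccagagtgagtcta
Hoxa11: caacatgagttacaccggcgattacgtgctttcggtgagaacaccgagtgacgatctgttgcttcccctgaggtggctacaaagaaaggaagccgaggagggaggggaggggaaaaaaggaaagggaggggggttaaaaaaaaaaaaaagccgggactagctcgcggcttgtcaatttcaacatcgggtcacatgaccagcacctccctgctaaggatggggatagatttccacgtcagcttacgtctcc
Hoxd8: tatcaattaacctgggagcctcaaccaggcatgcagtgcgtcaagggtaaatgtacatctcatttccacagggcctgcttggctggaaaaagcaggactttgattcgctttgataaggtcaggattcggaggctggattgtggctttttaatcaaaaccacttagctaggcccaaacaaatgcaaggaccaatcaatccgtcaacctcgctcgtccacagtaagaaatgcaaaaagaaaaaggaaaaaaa
Both strands were searched for 4 motifs in such windows. GGGNNNNNCC was found in 54.5% of 22 windows of 20 HOX genes and in 45.8% of 32851 windows of all genes, and 2 of its matches, which overlap, are in the Hoxa10 window shown. TGANTCA, the AP-1 motif, was in 4.5% of the HOX windows and 6.7% of all windows, and TGATNNAT, bound by HOX proteins with PBX, was in 13.6% and 7.7%. TATAAA was in 18.2% of the HOX windows and 12.4% of all windows. The Hoxa11 and Hoxd8 windows shown hold none of the 4 motifs. Hoxd9 and Hoxd11, not printed, each had a window with GGGNNNNNCC, and TGANTCA and TGATNNAT were found for Hoxd11 as well. CpG dinucleotides, whose density is high in HOX clusters, had a median of 13 per HOX window against 6 over all windows. A match describes letters only and says nothing of binding.

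The chondrocyte cultures expressed a posterior HOX profile led by paralog group 10, and the part of other cells in these levels was not tested. Over the 24 libraries, Hoxa10 averaged 39.8 ± 9.59 FPKM, Hoxc10 23.5 ± 5.67 and Hoxa11 17.0 ± 3.43 (SD, n = 24), followed by Hoxd8 at 10.4 ± 2.08 and Hoxc6 at 9.05 ± 2.26. The order differed between groups: at 36 h with IL-1β, Hoxa11 averaged 17.6 ± 0.363 FPKM and Hoxc10 17.0 ± 1.13 in co-culture, and 19.7 ± 1.07 and 17.1 ± 0.459 in normal culture (SD, n = 3). At 72 h with IL-1β in normal culture, Hoxa10 averaged 24.8 ± 2.38 and Hoxc10 24.2 ± 0.488 FPKM, within their spread. Hoxa10 lay at the 88.6th percentile of all genes by mean FPKM. The Hoxa genes held on average 48.5% of the summed HOX FPKM, the Hoxc genes 36.8%, the Hoxd genes 12.2% and the Hoxb genes 2.6%. With IL-1β at 72 h the Hoxc share was above the Hoxa share, with mean shares of 44.3% Hoxc and 41.5% Hoxa in co-culture, and 45.9% and 39.9% in normal culture. By paralog number, groups 9 to 11 held 72.4%, of which group 10 alone held 44.7% of all HOX FPKM, while groups 4 to 8 held 21.7%, groups 12 and 13 held 3.43% and groups 1 to 3 held 2.48%. Of the Hoxb genes only Hoxb9, at 1.93 ± 0.426 FPKM, was abundant enough to be tested. At 72 h, Hoxb2 was at 0.91, 0.91 and 0.98 FPKM in co-culture with IL-1β, 0.61, 0.54 and 0.65 in untreated co-culture, 0.5, 0.76 and 0.79 in normal culture with IL-1β and 0.78, 0.7 and 0.46 in untreated normal culture. At 36 h, Hoxb2 was at 0.58, 0.47 and 0.62 FPKM in co-culture with IL-1β, 0.51, 0.39 and 0.39 in untreated co-culture, 0.47, 0.66 and 0.35 in normal culture with IL-1β and 0.59, 0.42 and 0.51 in untreated normal culture. Every Hoxb2 value was under 1 FPKM. At 72 h, Hoxb7 was at 0.15, 0.15 and 0.38 FPKM in co-culture with IL-1β, 0.24, 0.26 and 0.3 in untreated co-culture, 0.04, 0.49 and 0.23 in normal culture with IL-1β and 0.35, 0.27 and 0.31 in untreated normal culture. At 36 h, Hoxb7 was at 0.35, 0.31 and 0.39 FPKM in co-culture with IL-1β, 0.19, 0.23 and 0.47 in untreated co-culture, 0.51, 0.5 and 0.51 in normal culture with IL-1β and 0.94, 0.55 and 0.35 in untreated normal culture. The Hoxb7 values were low throughout and spread widely within groups. Hoxa13 and Hoxd13, which pattern the digits, averaged 0.262 and 0.238 FPKM, whereas Hoxc13, known for its role in hair and nail, averaged 3.66 ± 1.66 FPKM.

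**Figure D1:**
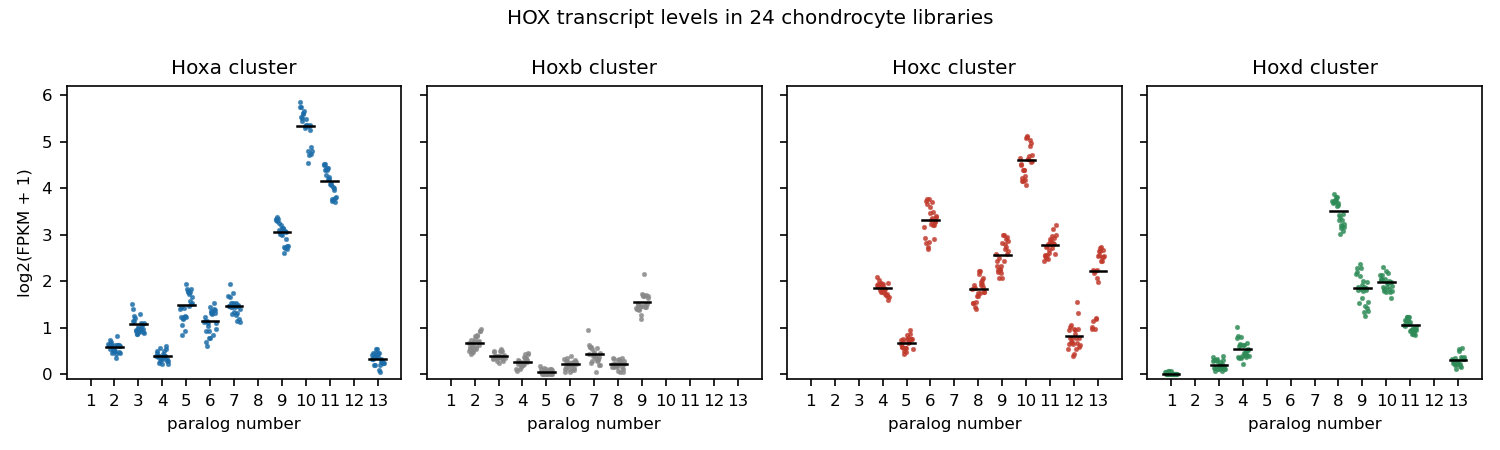
Levels of HOX genes as log2(FPKM + 1) against paralog number, 1 panel per cluster; each point is 1 of 24 libraries and the bar is their mean. Hoxa10, Hoxc10 and Hoxa11 stand highest, and every Hoxb gene except Hoxb9 lies under 1 FPKM in every library.

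Of the 36 HOX genes, 21 reached 1 FPKM in at least 3 libraries and were tested: 8 Hoxa, 1 Hoxb, 8 Hoxc and 4 Hoxd genes. The 15 others averaged between 0.0088 FPKM for Hoxd1, listed at 0 in 19 libraries, and 0.606 FPKM for Hoxb2. The library protocol in the labels has no step that marks strand. By GENCODE, 9 HOX genes share exon sequence with another gene on their own strand and 10 with a gene on the opposite strand. Reads of Hoxa9 and Mir196b, Hoxc10 and Hoxc5, Hoxd10 or Hoxd11 and Gm28309, Hoxa11 and its antisense gene Hoxa11os, or Hoxa7 and Hoxaas3 cannot be told apart with certainty, and the same holds for Hoxa3. The levels of these genes are uncertain to that extent. Tbx4 and Pitx1, which mark hindlimb identity, averaged 14.5 ± 3.96 and 29.5 ± 11.6 FPKM over the 24 libraries, against 1.64 ± 0.613 FPKM of the forelimb gene Tbx5 (SD, n = 24). Prrx1, a marker of limb mesenchyme, averaged 128 ± 29.0 FPKM.

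The summed levels of the clusters moved in opposite directions with time. The summed Hoxc level was higher at 72 h than at 36 h in each of the 4 settings, and the summed Hoxa and Hoxd levels were lower. The abundant genes Hoxa10, Hoxa11 and Hoxc10 weigh most in the Hoxa and Hoxc sums, and single genes of a cluster did not all move with it. In untreated normal culture the Hoxc genes summed to 68.0 ± 0.838 FPKM at 72 h and 46.1 ± 2.62 FPKM at 36 h (SD, n = 3). The Hoxa genes summed there to 74.3 ± 2.31 FPKM at 72 h and 93.4 ± 2.31 FPKM at 36 h. The Hoxd genes summed to 17.1 ± 0.333 and 21.9 ± 0.714 FPKM. The sum over all 36 genes was 163 ± 1.59 FPKM at 72 h and 165 ± 4.84 FPKM at 36 h in that setting. The Hoxc genes held between 40.6% and 47.0% of the HOX FPKM of a library at 72 h and between 27.2% and 34.1% at 36 h, without overlap. The Hoxa genes held between 39.1% and 46.6% at 72 h and between 50.3% and 56.9% at 36 h.

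**Figure D2:**
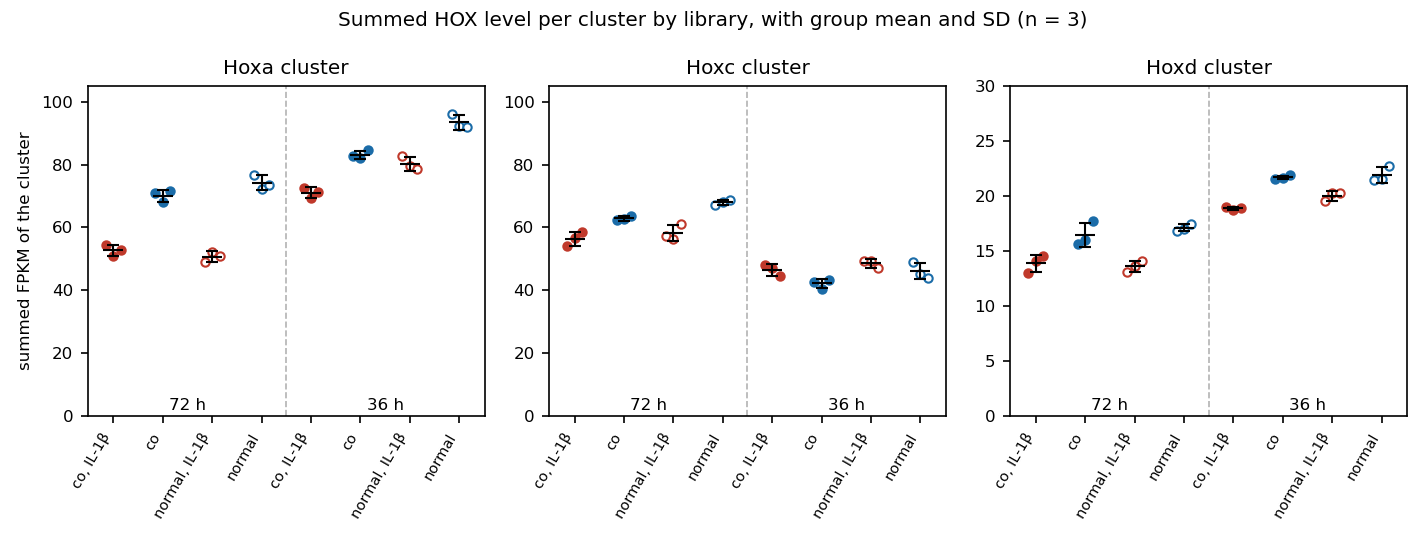
Summed FPKM of the Hoxa, Hoxc and Hoxd genes in each library (circles), with the group mean and SD (n = 3); red marks IL-1β and filled circles mark co-culture (co). In every culture and treatment the Hoxc circles sit higher at 72 h than at 36 h and the Hoxa and Hoxd circles lower.

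Changes are differences of log2(FPKM + 1) ± SE, tested with limma across 12178 genes, with an adjusted p under 0.05 as the threshold for passing. Of the 21 HOX genes tested, 9 rose and 7 fell at 72 h in untreated normal culture, where 58.4% of all genes passed (33.1% rose, 25.3% fell). In normal culture with IL-1β, 7 rose and 9 fell, against 69.1% of all genes (37.1% and 32%). In untreated co-culture 8 rose and 6 fell, against 61.5% (36.6% and 24.9%), and in co-culture with IL-1β 6 rose and 9 fell, against 64.3% (35.4% and 28.9%). The share of HOX genes that passed, between 66.7% and 76.2%, was thus near or moderately above that of all genes. The share of all genes that rose or fell in all 4 settings, or without overlap, was not counted. Their median change was 0.21 in untreated normal culture, -0.18 in normal culture with IL-1β, 0.12 in untreated co-culture and 0.01 in co-culture with IL-1β, beside medians of all genes between 0.02 and 0.05. Of the 8 tested Hoxc genes, 6 rose and none fell in untreated normal culture, 4 rose and 1 fell in normal culture with IL-1β, 6 rose and 1 fell in untreated co-culture, and 3 rose and 1 fell in co-culture with IL-1β. Of the 8 tested Hoxa genes, 2 rose and 2 fell in untreated co-culture, where their median change was 0.08, and 2 rose and 4 fell in each of the other 3 settings. Of the 4 tested Hoxd genes none rose, and 3 fell in each untreated culture and 4 in each culture with IL-1β.

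**Figure D3:**
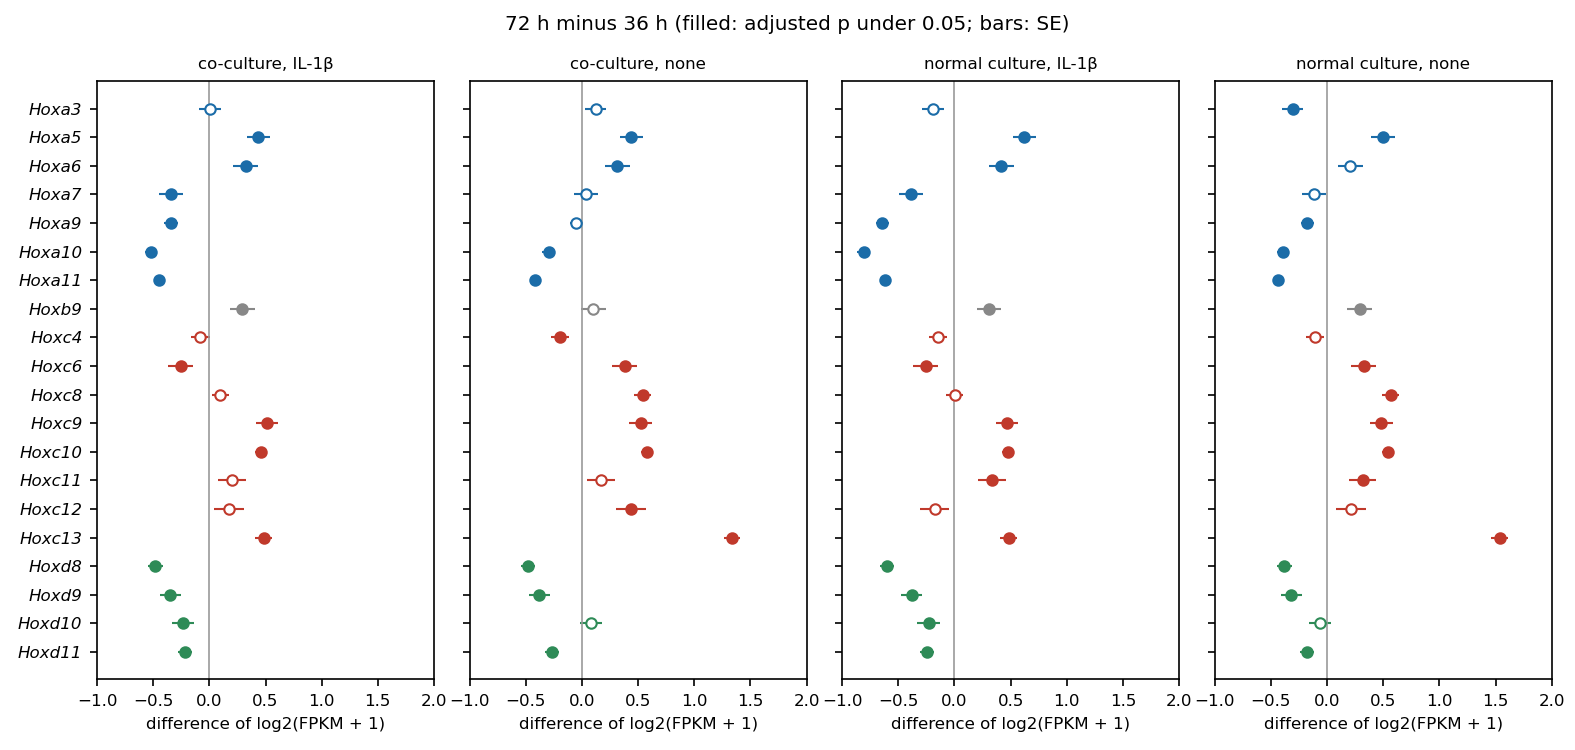
Change of tested HOX genes between 72 h and 36 h as a difference of log2(FPKM + 1), with the SE; filled points passed an adjusted p under 0.05, and colours mark the clusters. Hoxc8 to Hoxc10 and Hoxc13 lie at or right of 0 in every panel, and Hoxa10, Hoxa11, Hoxd8, Hoxd9 and Hoxd11 left of it.

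Hoxc13 had the largest change of any HOX gene with time in untreated cells, and with IL-1β the change of Hoxa10 was larger. At 72 h, Hoxc13 was at 5.43, 4.79 and 4.8 FPKM in co-culture with IL-1β, 4.4, 4.77 and 4.42 in untreated co-culture, 5.26, 5.57 and 5.67 in normal culture with IL-1β and 4.86, 5.28 and 4.96 in untreated normal culture. At 36 h, Hoxc13 was at 3.76, 3.23 and 2.94 FPKM in co-culture with IL-1β, 0.96, 1.29 and 1.33 in untreated co-culture, 3.76, 3.51 and 3.69 in normal culture with IL-1β and 1.04, 0.98 and 1.22 in untreated normal culture. The untreated cells at 36 h thus stood apart, near 1 FPKM, from every other group. In untreated normal culture the mean at 72 h was 4.66 times that at 36 h, a change of 1.54 ± 0.07 (adjusted p = 6.62e-14), and in untreated co-culture the change was 1.34 ± 0.07 (adjusted p = 1.07e-12). With IL-1β it was 0.48 ± 0.07 (adjusted p = 5.36e-06) in normal culture and 0.48 ± 0.07 (adjusted p = 6.51e-06) in co-culture, and the libraries of the 2 times did not overlap in any setting.

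Hoxc10, known for marking the lumbar region and hindlimb, rose at 72 h in all 4 settings. At 72 h, Hoxc10 was at 22.9, 23.1 and 25.3 FPKM in co-culture with IL-1β, 31.8, 28.9 and 30.6 in untreated co-culture, 23.9, 23.9 and 24.8 in normal culture with IL-1β and 32.8, 33.4 and 33.9 in untreated normal culture. At 36 h, Hoxc10 was at 17.1, 18.1 and 15.9 FPKM in co-culture with IL-1β, 20.1, 19.9 and 19.98 in untreated co-culture, 16.9, 17.6 and 16.8 in normal culture with IL-1β and 24.2, 21.5 and 22.03 in untreated normal culture. Each setting had its 3 libraries at 72 h above its 3 at 36 h. The changes were 0.54 ± 0.05 (adjusted p = 6.11e-09) in untreated normal culture and 0.58 ± 0.05 (adjusted p = 2.34e-09) in untreated co-culture. They were 0.48 ± 0.05 (adjusted p = 3.18e-08) in normal culture with IL-1β and 0.46 ± 0.05 (adjusted p = 7.86e-08) in co-culture with IL-1β. At 72 h, Hoxc9 was at 4.98, 5.32 and 6.29 FPKM in co-culture with IL-1β, 5.63, 6.48 and 6.73 in untreated co-culture, 4.39, 5.47 and 5.99 in normal culture with IL-1β and 6.06, 6.98 and 6.94 in untreated normal culture. At 36 h, Hoxc9 was at 4.01, 3.53 and 3.18 FPKM in co-culture with IL-1β, 4.63, 3.83 and 3.75 in untreated co-culture, 3.72, 3.62 and 3.22 in normal culture with IL-1β and 5.01, 4.45 and 4.01 in untreated normal culture. Hoxc9, its neighbour in the cluster, also rose in all 4 settings without overlap, by 0.47 to 0.52.

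Hoxa5, an anterior gene that acts in the neck, shoulder and lung, rose in all 4 settings as well, by 0.44 to 0.62. At 72 h, Hoxa5 was at 1.87, 2.15 and 1.92 FPKM in co-culture with IL-1β, 2.00, 2.44 and 2.58 in untreated co-culture, 2.42, 1.77 and 2.3 in normal culture with IL-1β and 2.86, 2.57 and 2.47 in untreated normal culture. At 36 h, Hoxa5 was at 1.39, 0.9 and 1.35 FPKM in co-culture with IL-1β, 1.32, 1.71 and 1.35 in untreated co-culture, 1.09, 0.8 and 1.28 in normal culture with IL-1β and 1.64, 1.74 and 1.35 in untreated normal culture. The Hoxa5 libraries of the 2 times did not overlap in any setting.

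Hoxc8 and Hoxc6, both of the thoracic part of the cluster, rose with time in untreated cells. At 72 h, Hoxc8 was at 2.67, 2.42 and 2.42 FPKM in co-culture with IL-1β, 2.83, 3.08 and 3.2 in untreated co-culture, 2.36, 2.79 and 2.98 in normal culture with IL-1β and 3.48, 3.7 and 3.65 in untreated normal culture. At 36 h, Hoxc8 was at 2.24, 2.21 and 2.37 FPKM in co-culture with IL-1β, 1.72, 1.64 and 1.96 in untreated co-culture, 2.8, 2.65 and 2.64 in normal culture with IL-1β and 2.58, 1.9 and 1.9 in untreated normal culture. Hoxc8 in untreated cells lay higher at 72 h without overlap. Its change was 0.57 ± 0.08 (adjusted p = 1.31e-06) in untreated normal culture and 0.54 ± 0.08 (adjusted p = 2.4e-06) in untreated co-culture, against 0.00 ± 0.08 and 0.10 ± 0.08 with IL-1β in normal culture and co-culture, which did not pass. At 72 h, Hoxc6 was at 8.72, 9.51 and 9.61 FPKM in co-culture with IL-1β, 6.49, 8.28 and 8.79 in untreated co-culture, 12.1, 8.22 and 10.2 in normal culture with IL-1β and 9.05, 8.37 and 9.21 in untreated normal culture. At 36 h, Hoxc6 was at 12.7, 11.2 and 10.03 FPKM in co-culture with IL-1β, 5.63, 5.47 and 6.17 in untreated co-culture, 12.3, 12.7 and 11.7 in normal culture with IL-1β and 7.96, 6.68 and 6.08 in untreated normal culture. Hoxc6 was lowest in untreated cells at 36 h, although 1 library of untreated co-culture at 72 h lay within their range. It rose by 0.38 ± 0.11 in untreated co-culture and by 0.33 ± 0.11 in untreated normal culture, where the call was lost without replicate 3 of untreated normal culture at 36 h (adjusted p = 0.0876) and without replicate 3 of untreated normal culture at 72 h (adjusted p = 0.0503). Under IL-1β it changed, by -0.25 in normal culture and -0.26 in co-culture with adjusted p = 0.0469 and 0.0489. The call in normal culture was lost without replicate 1, 2 or 3 of normal culture with IL-1β at 36 h (adjusted p = 0.09, 0.121 and 0.0537) and without replicate 2 or 3 of normal culture with IL-1β at 72 h (adjusted p = 0.335 and 0.0701). The call in co-culture was lost without replicate 1 or 2 of co-culture with IL-1β at 36 h (adjusted p = 0.22 and 0.085) and without replicate 1, 2 or 3 of co-culture with IL-1β at 72 h (adjusted p = 0.14, 0.0703 and 0.0617). The first was also lost with log2(FPKM + 0.1) (adjusted p = 0.051), with no filter (adjusted p = 0.0716) and when the compared groups alone were fitted (adjusted p = 0.0974), and the second with log2(FPKM + 0.1) (adjusted p = 0.053) and with no filter (adjusted p = 0.0753).

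Hoxc11, a posterior gene expressed in the hindlimb, had wider spread between libraries. At 72 h, Hoxc11 was at 5.02, 8.22 and 6.97 FPKM in co-culture with IL-1β, 6.11, 6.59 and 5.97 in untreated co-culture, 5.55, 6.88 and 7.79 in normal culture with IL-1β and 6.19, 6.3 and 5.98 in untreated normal culture. At 36 h, Hoxc11 was at 5.07, 5.38 and 6.51 FPKM in co-culture with IL-1β, 5.81, 4.6 and 5.97 in untreated co-culture, 5.67, 4.7 and 4.94 in normal culture with IL-1β and 4.45, 4.88 and 4.93 in untreated normal culture. The groups with IL-1β overlapped between the times. Its changes were 0.34 ± 0.12 (adjusted p = 0.0196) in normal culture with IL-1β and 0.32 ± 0.12 (adjusted p = 0.0321) in untreated normal culture. With 1 library left out the first was lost without replicate 2 or 3 of normal culture with IL-1β at 36 h (adjusted p = 0.0734 and 0.053) and without replicate 2 or 3 of normal culture with IL-1β at 72 h (adjusted p = 0.0523 and 0.115). The second was lost with no filter (adjusted p = 0.0519) and without replicate 1 or 2 of untreated normal culture at 36 h (adjusted p = 0.101 and 0.0533) and without replicate 1, 2 or 3 of untreated normal culture at 72 h (adjusted p = 0.0665, 0.0784 and 0.052). Hoxb9, which helps to pattern the rib cage, gave similar small changes. At 72 h, Hoxb9 was at 1.87, 2.1 and 2.22 FPKM in co-culture with IL-1β, 1.72, 1.75 and 2.29 in untreated co-culture, 3.45, 2.2 and 1.83 in normal culture with IL-1β and 2.32, 2.22 and 2.29 in untreated normal culture. At 36 h, Hoxb9 was at 1.44, 1.3 and 1.79 FPKM in co-culture with IL-1β, 1.63, 1.75 and 1.77 in untreated co-culture, 1.86, 1.8 and 1.66 in normal culture with IL-1β and 1.7, 1.67 and 1.67 in untreated normal culture. Replicate 1 of normal culture with IL-1β at 72 h was the highest. Its changes were 0.31 ± 0.11 (adjusted p = 0.0184) in normal culture with IL-1β, 0.29 ± 0.11 (adjusted p = 0.0265) in co-culture with IL-1β and 0.29 ± 0.11 (adjusted p = 0.0295) in untreated normal culture. The first call was lost when the compared groups alone were fitted (adjusted p = 0.111) and without replicate 3 of normal culture with IL-1β at 36 h (adjusted p = 0.0601) and without replicate 1 of normal culture with IL-1β at 72 h (adjusted p = 0.221). The second was lost without replicate 1 or 2 of co-culture with IL-1β at 36 h (adjusted p = 0.0694 and 0.116) and without replicate 2 or 3 of co-culture with IL-1β at 72 h (adjusted p = 0.062 and 0.0866). The untreated call was lost without replicate 1, 2 or 3 of untreated normal culture at 36 h (adjusted p = 0.0557, 0.064 and 0.0628) and without replicate 1, 2 or 3 of untreated normal culture at 72 h (adjusted p = 0.0676, 0.0513 and 0.0644).

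The abundant posterior Hoxa genes went the other way. At 72 h, Hoxa10 was at 28.4, 25.8 and 26.96 FPKM in co-culture with IL-1β, 39.7, 37.3 and 40.3 in untreated co-culture, 22.3, 26.9 and 25.3 in normal culture with IL-1β and 43.8, 39.5 and 40.3 in untreated normal culture. At 36 h, Hoxa10 was at 39.4, 38.2 and 40.1 FPKM in co-culture with IL-1β, 48.1, 47.4 and 49.3 in untreated co-culture, 45.1, 42.6 and 44.8 in normal culture with IL-1β and 56.6, 53.1 and 53.1 in untreated normal culture. Hoxa10, needed for the upper leg skeleton and the uterus, lay lower at 72 h in each setting without overlap. It changed by -0.81 ± 0.06 (adjusted p = 3.44e-11) in normal culture with IL-1β and -0.52 ± 0.06 (adjusted p = 5.15e-08) in co-culture with IL-1β. Without IL-1β it changed by -0.39 ± 0.06 (adjusted p = 3.76e-06) in normal culture and -0.30 ± 0.06 (adjusted p = 0.000104) in co-culture. At 72 h, Hoxa11 was at 12.8, 12.1 and 13.1 FPKM in co-culture with IL-1β, 15.3, 14.7 and 15.2 in untreated co-culture, 12.2, 12.6 and 12.4 in normal culture with IL-1β and 15.9, 16.00 and 15.8 in untreated normal culture. At 36 h, Hoxa11 was at 17.5, 18.1 and 17.4 FPKM in co-culture with IL-1β, 20.1, 20.7 and 20.8 in untreated co-culture, 20.1, 20.4 and 18.4 in normal culture with IL-1β and 21.5, 22.1 and 22.1 in untreated normal culture. Hoxa11, which with Hoxd11 patterns the forearm and lower leg, also had all libraries lower at 72 h than those of the same setting at 36 h. Its changes were -0.62 ± 0.04 (adjusted p = 1.23e-11) in normal culture with IL-1β and -0.44 ± 0.04 (adjusted p = 5.11e-09) in untreated normal culture, with -0.45 and -0.42 in co-culture with and without IL-1β.

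At 72 h, Hoxa9 was at 5.73, 5.49 and 5.74 FPKM in co-culture with IL-1β, 7.47, 6.47 and 7.37 in untreated co-culture, 5.65, 5.08 and 5.57 in normal culture with IL-1β and 7.88, 7.73 and 7.9 in untreated normal culture. At 36 h, Hoxa9 was at 8.27, 7.07 and 7.02 FPKM in co-culture with IL-1β, 7.62, 7.15 and 7.34 in untreated co-culture, 9.44, 9.11 and 8.58 in normal culture with IL-1β and 9.09, 9.05 and 8.8 in untreated normal culture. Hoxa9, best known from blood stem cells and leukaemia, was lowest in the IL-1β groups at 72 h and the untreated co-cultures of the 2 times overlapped. It changed by -0.64 ± 0.06 (adjusted p = 2.79e-09) in normal culture with IL-1β and -0.34 ± 0.06 (adjusted p = 2.81e-05) in co-culture with IL-1β. It changed by -0.17 ± 0.06 (adjusted p = 0.0139) in untreated normal culture, whereas untreated co-culture gave -0.05 ± 0.06, which did not pass. At 72 h, Hoxa6 was at 1.61, 1.15 and 0.97 FPKM in co-culture with IL-1β, 1.64, 1.88 and 1.5 in untreated co-culture, 1.55, 1.45 and 0.81 in normal culture with IL-1β and 1.74, 1.51 and 1.58 in untreated normal culture. At 36 h, Hoxa6 was at 0.9, 0.72 and 0.73 FPKM in co-culture with IL-1β, 1.23, 1.07 and 1.14 in untreated co-culture, 0.62, 0.92 and 0.53 in normal culture with IL-1β and 1.19, 1.23 and 1.36 in untreated normal culture. Its groups of the 2 times overlapped in normal culture with IL-1β alone. Hoxa6, of the same paralog number as Hoxc6, passed upward at 72 h in 3 settings, all except untreated normal culture, by 0.32 to 0.42. In untreated normal culture it was higher at 72 h as well but did not pass as fitted. It passed there when the compared groups alone were fitted (0.21, adjusted p = 0.0215) and with weights per library (0.19, adjusted p = 0.0396). Hoxa7 changed under IL-1β in normal culture and co-culture, by -0.38 and -0.34. The Hoxa6 call in co-culture with IL-1β was lost without replicate 2 of co-culture with IL-1β at 36 h (adjusted p = 0.052) and without replicate 1 of co-culture with IL-1β at 72 h (adjusted p = 0.123). The one in untreated co-culture was lost without replicate 2 of untreated co-culture at 36 h (adjusted p = 0.0605) and without replicate 2 of untreated co-culture at 72 h (adjusted p = 0.0858). The Hoxa7 call in co-culture was lost without replicate 1 of co-culture with IL-1β at 36 h (adjusted p = 0.0538). Hoxa3 changed in untreated normal culture by -0.31 ± 0.10 (adjusted p = 0.0086), a call lost without replicate 1 of untreated normal culture at 36 h (adjusted p = 0.0668) and without replicate 1 or 2 of untreated normal culture at 72 h (adjusted p = 0.0555 and 0.0508). In untreated co-culture Hoxc12 rose by 0.44 ± 0.13 (adjusted p = 0.00641), lost without replicate 1 of untreated co-culture at 72 h (adjusted p = 0.062). Hoxc4 changed there by -0.19 ± 0.08 (adjusted p = 0.0416), lost with no filter (adjusted p = 0.0568) and without replicate 2 or 3 of untreated co-culture at 36 h (adjusted p = 0.105 and 0.141) and without replicate 1, 2 or 3 of untreated co-culture at 72 h (adjusted p = 0.081, 0.0968 and 0.0628).

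**Figure D4:**
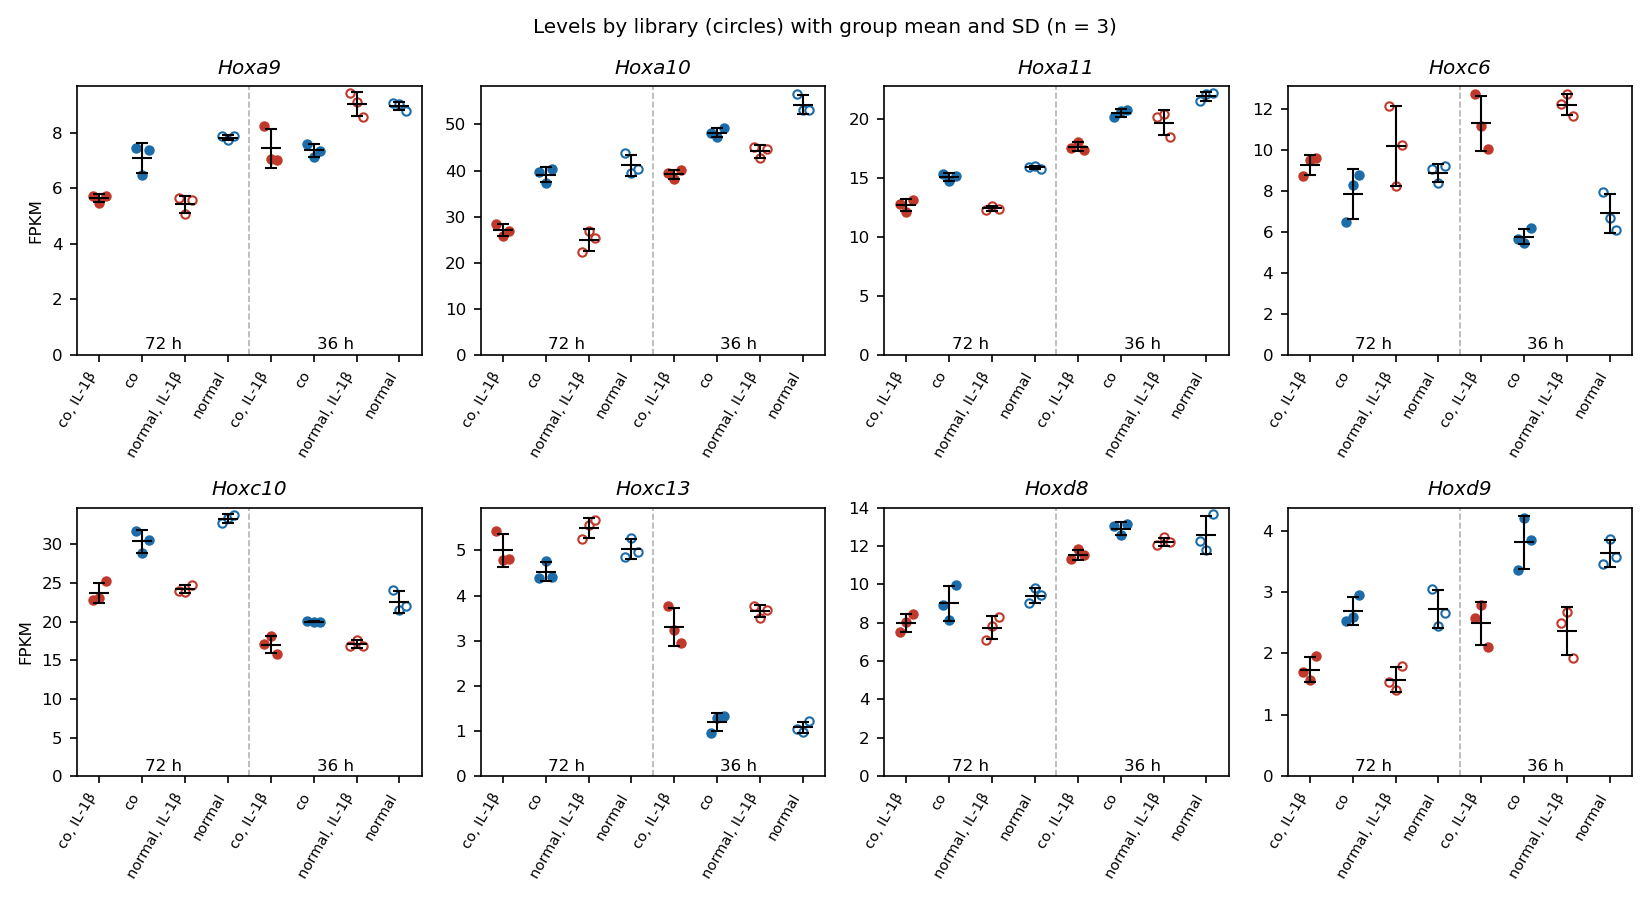
FPKM of 8 HOX genes in every library (circles; red with IL-1β, filled in co-culture, co), with the group mean and SD (n = 3), at 72 h on the left of each panel and 36 h on the right. Hoxc13 is near 1 FPKM in untreated cells at 36 h alone, and Hoxa10 and Hoxa11 are lower at 72 h than at 36 h and lower with IL-1β than without.

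Of the 4 tested Hoxd genes, Hoxd8, Hoxd9 and Hoxd11 fell with time in all 4 settings. Of all genes, 24.9% to 32% fell in each setting, and the share that fell in all 4 was not counted. At 72 h, Hoxd8 was at 7.51, 8.04 and 8.45 FPKM in co-culture with IL-1β, 8.93, 8.14 and 9.97 in untreated co-culture, 7.08, 7.85 and 8.28 in normal culture with IL-1β and 9.01, 9.8 and 9.44 in untreated normal culture. At 36 h, Hoxd8 was at 11.3, 11.8 and 11.5 FPKM in co-culture with IL-1β, 13.03, 12.6 and 13.2 in untreated co-culture, 12.03, 12.4 and 12.2 in normal culture with IL-1β and 12.2, 11.8 and 13.7 in untreated normal culture. Every Hoxd8 value at 36 h exceeded every value at 72 h. The change was -0.60 ± 0.06 (adjusted p = 3.3e-08) in normal culture with IL-1β and -0.48 ± 0.06 (adjusted p = 1.08e-06) in co-culture with IL-1β. Without IL-1β it was -0.48 ± 0.06 (adjusted p = 1.42e-06) in co-culture and -0.38 ± 0.06 (adjusted p = 2.81e-05) in normal culture. At 72 h, Hoxd9 was at 1.69, 1.56 and 1.96 FPKM in co-culture with IL-1β, 2.53, 2.6 and 2.95 in untreated co-culture, 1.53, 1.4 and 1.79 in normal culture with IL-1β and 3.05, 2.45 and 2.66 in untreated normal culture. At 36 h, Hoxd9 was at 2.58, 2.78 and 2.1 FPKM in co-culture with IL-1β, 3.36, 4.21 and 3.85 in untreated co-culture, 2.5, 2.67 and 1.92 in normal culture with IL-1β and 3.45, 3.87 and 3.57 in untreated normal culture. Hoxd9, which acts with its group 9 paralogs in the limb, changed in all 4 settings by -0.32 to -0.38. Hoxd11 changed in all 4 as well, by -0.18 to -0.27, with a mean of 1.08 FPKM over the 24 libraries. Its call in untreated normal culture was lost without replicate 2 of untreated normal culture at 36 h (adjusted p = 0.102) and without replicate 3 of untreated normal culture at 72 h (adjusted p = 0.0743). At 72 h, Hoxd10 was at 2.13, 2.75 and 2.46 FPKM in co-culture with IL-1β, 2.44, 2.96 and 2.98 in untreated co-culture, 2.88, 3.02 and 2.58 in normal culture with IL-1β and 2.9, 2.69 and 3.56 in untreated normal culture. At 36 h, Hoxd10 was at 3.15, 2.44 and 3.66 FPKM in co-culture with IL-1β, 2.69, 2.58 and 2.48 in untreated co-culture, 3.14, 3.4 and 3.96 in normal culture with IL-1β and 3.41, 3.09 and 3.13 in untreated normal culture. The Hoxd10 groups lay close together. It changed with time under IL-1β, by -0.23 ± 0.10 (adjusted p = 0.0445) in normal culture and -0.24 ± 0.10 (adjusted p = 0.0424) in co-culture, and its changes in untreated cells did not pass. The call in normal culture was lost without replicate 2 or 3 of normal culture with IL-1β at 36 h (adjusted p = 0.0641 and 0.206) and without replicate 1 or 3 of normal culture with IL-1β at 72 h (adjusted p = 0.0603 and 0.15). The call in co-culture was lost without replicate 1 or 3 of co-culture with IL-1β at 36 h (adjusted p = 0.102 and 0.263) and without replicate 1 or 3 of co-culture with IL-1β at 72 h (adjusted p = 0.182 and 0.0721). The first was also lost with no filter (adjusted p = 0.0655), when the compared groups alone were fitted (adjusted p = 0.0604) and with weights per library (adjusted p = 0.178). The second was also lost with no filter (adjusted p = 0.0639), when the compared groups alone were fitted (adjusted p = 0.0887) and with weights per library (adjusted p = 0.143).

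Over the same interval, 10 of the 10 skeletal muscle markers tested fell and 8 of the 9 macrophage markers tested rose in untreated normal culture. There, 4 of the 12 chondrocyte markers tested rose and 4 fell (66.7%). Of all genes, 58.4% passed in that comparison (33.1% rose, 25.3% fell). The muscle markers summed to 43.8 to 51.7 FPKM at 72 h and 257 to 293 FPKM at 36 h in that setting, and the macrophage markers to 102.0 to 109.7 and 54.6 to 62.9 FPKM. The dermal fibroblast markers summed to 810 to 912 FPKM at 72 h and 1204 to 1231 FPKM at 36 h, and 2 of 12 rose and 5 fell. Their part in the HOX changes was not tested.

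With IL-1β, the abundant posterior genes Hoxa10, Hoxa11 and Hoxc10 were lower at both times, and Hoxc6, Hoxc8 and Hoxc13 were higher at 36 h. At 72 h, none of the 21 tested HOX genes rose and 8 fell in normal culture, where 63.4% of all genes passed (23.1% rose, 40.3% fell). None rose and 7 fell in co-culture at that time, where 49.1% passed (18.5% and 30.6%). At 36 h, 4 rose and 7 fell in normal culture against 67.5% of all genes (25.9% and 41.5%). In co-culture at 36 h, 3 rose and 6 fell against 58.7% (23.4% and 35.3%). The share of HOX genes that passed, 33.3% to 52.4%, was below that of all genes in each of the 4. Their median change was -0.20 and -0.16 at 72 h in normal culture and co-culture, beside -0.08 and -0.06 for all genes, and 0.01 and -0.08 at 36 h, beside -0.09 and -0.06. The counts at 72 h in normal culture moved with the scale: after rescaling to TPM, the median of all genes at 72 h in normal culture was -0.20 and the HOX calls were 0 higher and 11 lower. After median-of-ratios scaling it was -0.01 with 1 higher, Hoxc13, and 7 lower. Among the tested paralogs 9 to 13, 6 of 12 fell in each 72 h comparison, and among paralogs 1 to 8, 2 of 9 fell in normal culture and 1 of 9 in co-culture. The most abundant HOX genes, Hoxa10, Hoxc10 and Hoxa11, are all among paralogs 9 to 13, and log2(FPKM + 1) understates the change of low genes. The part of abundance in these counts was not tested.

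**Figure D5:**
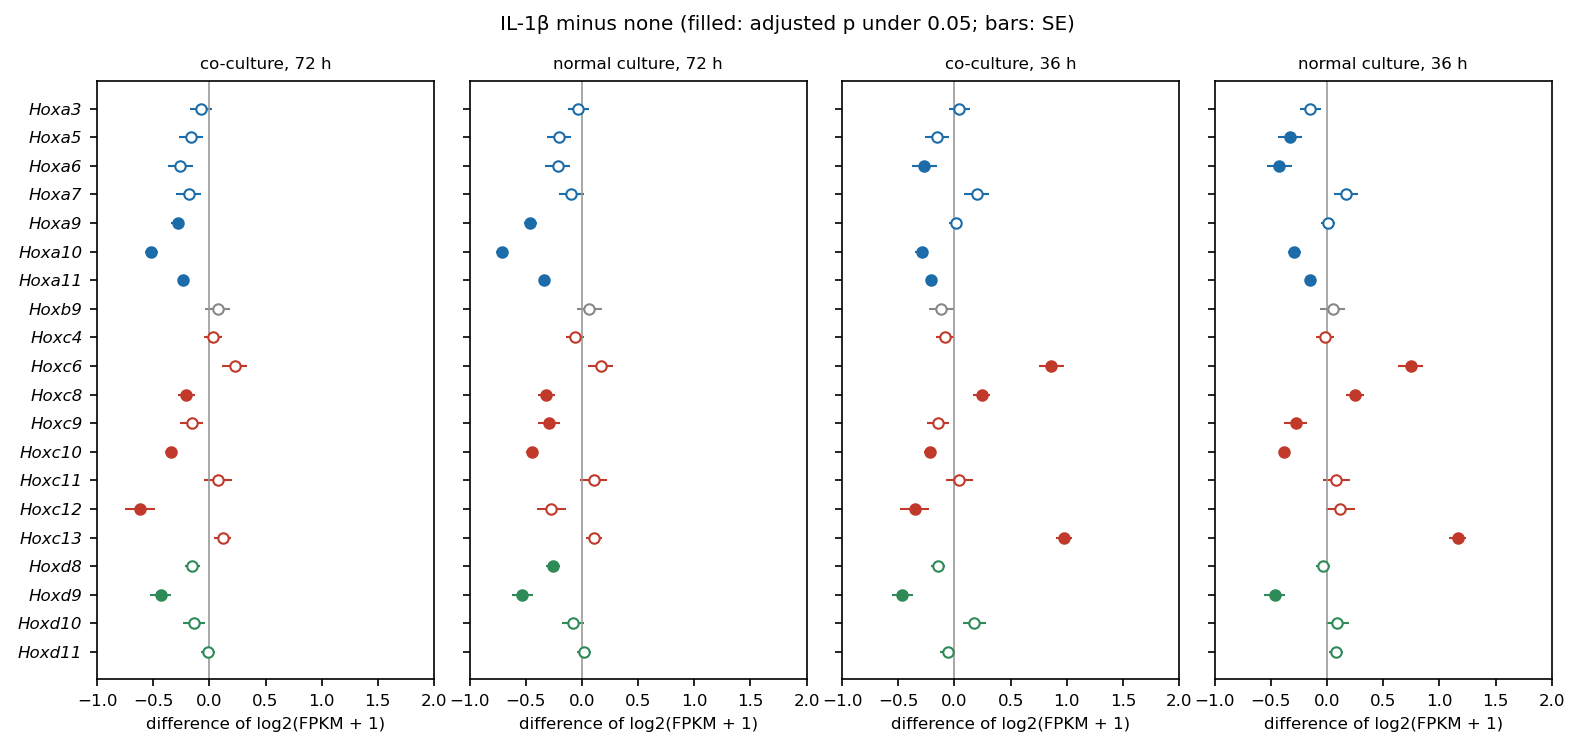
Change of tested HOX genes between IL-1β and no IL-1β as a difference of log2(FPKM + 1), with the SE; filled points passed an adjusted p under 0.05, and colours mark the clusters. Hoxa10, Hoxa11, Hoxc10 and Hoxd9 lie left of 0 in all panels, and Hoxc6, Hoxc8 and Hoxc13 are filled to the right at 36 h alone.

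Hoxa10, Hoxa11, Hoxc10 and Hoxd9 fell with IL-1β in all 4 comparisons, with no overlap between the libraries compared. Of all genes, 30.6% to 41.5% fell in each comparison, and the share that fell in all 4 or without overlap was not counted. At 72 h, Hoxa10 averaged 24.8 ± 2.38 FPKM with IL-1β and 41.2 ± 2.28 FPKM without it in normal culture (SD, n = 3), a change of -0.71 ± 0.06 (adjusted p = 3.25e-10), and the change in co-culture was -0.52 ± 0.06 (adjusted p = 8.22e-08). At 36 h it was -0.29 ± 0.06 (adjusted p = 9.87e-05) in normal culture and -0.29 ± 0.06 (adjusted p = 0.000122) in co-culture. Hoxa11 changed by -0.33 ± 0.04 (adjusted p = 2.81e-07) in normal culture and -0.23 ± 0.04 (adjusted p = 5.8e-05) in co-culture at 72 h, and by -0.15 ± 0.04 and -0.21 ± 0.04 at 36 h. The Hoxa11 change at 36 h in normal culture did not pass after median-of-ratios scaling (adjusted p = 0.0588). Hoxc10 averaged 24.2 ± 0.488 FPKM with IL-1β and 33.3 ± 0.546 FPKM without it at 72 h in normal culture, a change of -0.45 ± 0.05 (adjusted p = 1.11e-07). It changed by -0.34 ± 0.05 in co-culture at 72 h and by -0.38 ± 0.05 and -0.22 ± 0.05 in normal culture and co-culture at 36 h. Hoxd9 changed by -0.53 ± 0.10 and -0.43 ± 0.10 in normal culture and co-culture at 72 h and by -0.47 ± 0.10 and -0.46 ± 0.10 at 36 h.

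Other members fell in some of the comparisons. Hoxa9 changed at 72 h, by -0.46 ± 0.06 (adjusted p = 5.83e-07) in normal culture and -0.28 ± 0.06 (adjusted p = 0.000379) in co-culture, while its 36 h changes were 0.01 ± 0.06 and 0.01 ± 0.06 and did not pass. Hoxd8 fell at 72 h in normal culture, with -0.26 ± 0.06 (adjusted p = 0.00153). In co-culture its change was -0.15 ± 0.06 at 72 h and -0.15 ± 0.06 at 36 h, neither of which passed as fitted. Both passed after rescaling to TPM (-0.24, adjusted p = 0.00249 at 72 h and -0.23, adjusted p = 0.00369 at 36 h) and with weights per library (adjusted p = 0.0202 and 0.0155). The 36 h change also passed with the filter at 5 FPKM (adjusted p = 0.0494) and when the compared groups alone were fitted (adjusted p = 0.00638). At 36 h Hoxa6 changed by -0.42 ± 0.11 in normal culture and by -0.27 ± 0.11 in co-culture. The co-culture call was lost with no filter (adjusted p = 0.0608) and after median-of-ratios scaling (adjusted p = 0.0673), and without replicate 1, 2 or 3 of untreated co-culture at 36 h (adjusted p = 0.12, 0.0589 and 0.0834) and without replicate 2 or 3 of co-culture with IL-1β at 36 h (adjusted p = 0.117 and 0.111). Hoxa5 changed by -0.33 ± 0.10 in normal culture at 36 h, a call lost without replicate 2 of normal culture with IL-1β at 36 h (adjusted p = 0.0682). Hoxc9 changed in normal culture by -0.29 ± 0.10 at 72 h and -0.28 ± 0.10 at 36 h. The 72 h call was lost after median-of-ratios scaling (adjusted p = 0.0606) and without replicate 2 or 3 of untreated normal culture at 72 h (adjusted p = 0.0561 and 0.0534) and without replicate 1 of normal culture with IL-1β at 72 h (adjusted p = 0.117). The 36 h call was lost without replicate 1 of untreated normal culture at 36 h (adjusted p = 0.103) and without replicate 3 of normal culture with IL-1β at 36 h (adjusted p = 0.0818).

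At 72 h, Hoxc12 was at 0.71, 0.51 and 0.56 FPKM in co-culture with IL-1β, 1.95, 1.51 and 0.96 in untreated co-culture, 0.45, 0.71 and 0.6 in normal culture with IL-1β and 0.98, 0.93 and 0.83 in untreated normal culture. At 36 h, Hoxc12 was at 0.31, 0.57 and 0.36 FPKM in co-culture with IL-1β, 1.09, 0.62 and 0.73 in untreated co-culture, 1.04, 0.72 and 0.63 in normal culture with IL-1β and 0.47, 0.94 and 0.57 in untreated normal culture. Hoxc12, a low-abundance gene known from the hair follicle, had its 2 highest values in untreated co-culture at 72 h, and its groups with and without IL-1β overlapped in normal culture at 36 h alone. It changed with IL-1β in co-culture, by -0.62 ± 0.13 (adjusted p = 0.000469) at 72 h and -0.35 ± 0.13 (adjusted p = 0.0238) at 36 h. The 36 h call was lost without replicate 1 of untreated co-culture at 36 h (adjusted p = 0.143) and without replicate 1 or 3 of co-culture with IL-1β at 36 h (adjusted p = 0.09 and 0.0679). In normal culture its change was -0.27 ± 0.13 at 72 h and 0.12 ± 0.13 at 36 h, neither of which passed as fitted. The 72 h change passed after rescaling to TPM (-0.47, adjusted p = 0.0285) and when the compared groups alone were fitted (-0.27, adjusted p = 0.0284).

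As fitted, the HOX genes that rose with IL-1β passed at 36 h. Hoxc13 averaged 3.65 ± 0.129 FPKM with IL-1β and 1.08 ± 0.125 FPKM without it in normal culture at 36 h (SD, n = 3), a ratio of 3.38 and a change of 1.16 ± 0.07 (adjusted p = 4.32e-12). Its change in co-culture was 0.97 ± 0.07 (adjusted p = 1.51e-10). Hoxc6 averaged 12.2 ± 0.536 FPKM with IL-1β and 6.91 ± 0.960 FPKM without it in normal culture, a change of 0.75 ± 0.11 (adjusted p = 3.45e-06), and changed by 0.86 ± 0.11 (adjusted p = 7.28e-07) in co-culture. Hoxc8 rose by 0.25 ± 0.08 (adjusted p = 0.00619) in normal culture and 0.24 ± 0.08 (adjusted p = 0.00945) in co-culture. At 72 h, the change of Hoxc13 was 0.11 ± 0.07 in normal culture and 0.12 ± 0.07 in co-culture and that of Hoxc6 was 0.17 ± 0.11 and 0.22 ± 0.11, none of which passed as fitted. Some upward changes at 72 h passed under alternatives. Hoxc6 passed in normal culture without replicate 2 of normal culture with IL-1β at 72 h (0.30, adjusted p = 0.0212). In co-culture it passed without replicate 3 of untreated co-culture at 72 h (0.30, adjusted p = 0.0488) and with weights per library (adjusted p = 0.0443). Hoxc13 passed in normal culture after median-of-ratios scaling (0.18, adjusted p = 0.039). With no filter, the low genes Hoxb4 in normal culture (0.15, adjusted p = 0.00632) and Hoxb2 in co-culture (0.27, adjusted p = 0.00993) passed too. Hoxc8 changed at 72 h by -0.32 ± 0.08 (adjusted p = 0.000978) in normal culture and -0.20 ± 0.08 (adjusted p = 0.0297) in co-culture. The Hoxc8 call in co-culture at 72 h was lost after median-of-ratios scaling (adjusted p = 0.0699) and without replicate 2 or 3 of untreated co-culture at 72 h (adjusted p = 0.0745 and 0.105) and without replicate 2 or 3 of co-culture with IL-1β at 72 h (adjusted p = 0.085 and 0.082).

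The IL-1β change at 72 h was then set against that at 36 h in the same model. In normal culture 6 of the 21 HOX genes (28.6%) had a lower IL-1β change at 72 h and none a higher one, beside 45.4% of all genes that passed (23.7% higher, 21.6% lower). In co-culture 5 (23.8%) were lower and none higher, beside 28.8% (14.1% and 14.8%). Hoxa6 passed as higher in normal culture with weights per library (0.35, adjusted p = 0.0108) and without replicate 3 of normal culture with IL-1β at 72 h (0.36, adjusted p = 0.039). Among genes that passed as lower in normal culture under alternatives alone, Hoxd8 did so after rescaling to TPM (-0.29, adjusted p = 0.0115). It also did so with log2(FPKM + 0.1) (adjusted p = 0.0487), a filter at 5 FPKM (adjusted p = 0.0488) and weights per library (adjusted p = 0.0327). The difference for Hoxc13 was -1.05 ± 0.10 (adjusted p = 4.34e-08) in normal culture and -0.86 ± 0.10 (adjusted p = 1.62e-06) in co-culture. For Hoxc6 it was -0.58 ± 0.16 (adjusted p = 0.00459) and -0.64 ± 0.16 (adjusted p = 0.00381), and for Hoxc8 -0.56 ± 0.11 (adjusted p = 0.000199) and -0.45 ± 0.11 (adjusted p = 0.0032). Among the Hoxa genes, the difference was -0.47 ± 0.08 (adjusted p = 0.000101) for Hoxa9 and -0.42 ± 0.08 (adjusted p = 0.000203) for Hoxa10 in normal culture, and -0.29 ± 0.08 and -0.22 ± 0.08 in co-culture. The Hoxa10 difference in co-culture was lost without replicate 1 or 2 of untreated co-culture at 36 h (adjusted p = 0.068 and 0.0806), without replicate 1 or 3 of co-culture with IL-1β at 36 h (adjusted p = 0.0683 and 0.0797), without replicate 1 or 3 of untreated co-culture at 72 h (adjusted p = 0.0762 and 0.0906) and without replicate 2 or 3 of co-culture with IL-1β at 72 h (adjusted p = 0.104 and 0.059). For Hoxa11 it was -0.18 ± 0.06 (adjusted p = 0.0122) in normal culture, with 0.051 when the compared groups alone were fitted.

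Markers of other cells moved with IL-1β as well. Of all genes in normal culture, 23.1% rose and 40.3% fell at 72 h, and 25.9% rose and 41.5% fell at 36 h. In co-culture, 18.5% rose and 30.6% fell at 72 h, and 23.4% rose and 35.3% fell at 36 h. At 72 h, 10 of the 10 tested skeletal muscle markers rose in each culture, with sums of 95.5 to 110.2 FPKM with IL-1β and 43.8 to 51.7 FPKM without it in normal culture. At 36 h, 4 of them rose and 2 fell in normal culture. The macrophage markers summed to 135.4 to 157.2 FPKM with IL-1β and 102.0 to 109.7 FPKM without it at 72 h in normal culture, and 3 of 9 rose while 5 fell. The 14 chondrocyte markers summed to between 289 and 333 FPKM per library with IL-1β and between 791 and 1148 FPKM without it. All 12 of the 12 tested fell in each comparison except normal culture at 36 h, where 11 fell. The 8 osteoblast markers summed to 2698 to 3074 FPKM with IL-1β and 991 to 1102 FPKM without it at 72 h in normal culture, and 2 of the 6 tested rose and 3 fell. The 8 endothelial markers summed to between 14.8 and 19.2 FPKM per library, with 6 of them under 1 FPKM throughout. The 8 keratinocyte markers, of which 7 were in the table and Krt5, Krt1, Dsp, Krt15 and Lor stayed under 1 FPKM in every library, summed to between 1.34 and 4.21 FPKM per library. The part of these cells in the HOX changes was not tested.

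Co-culture with dermal fibroblasts was associated with few changes among HOX genes and among all genes. As fitted, the HOX changes that passed were downward and at 36 h. Without IL-1β, 4 of the 21 tested HOX genes (19.0%) fell and none rose at 36 h, beside 15.5% of all genes that passed (6.28% rose, 9.2% fell). At 72 h none passed in limma, beside 3.4% of all genes (1.72% rose, 1.68% fell), with 5 at an unadjusted p under 0.05. With IL-1β, 2 (9.52%) fell and none rose at 36 h, beside 10.6% (6.38% rose, 4.17% fell). The shares of HOX genes that passed at 36 h were thus near those of all genes. Under IL-1β none passed at 72 h in limma, beside 12.5% (7.22% rose, 5.26% fell), with 1 at an unadjusted p under 0.05. The medians of the 21 genes were -0.07 without IL-1β and -0.12 with it at 36 h, beside -0.03 and 0.01 for all genes. Leaving out 1 library gave 2 to 3 calls at 36 h without IL-1β and 0 to 2 with it, the libraries being those named below for each gene. With weights per library, an alternative added after the data were seen, Hoxc8 and Hoxc10 were among 3 genes that also passed downward at 72 h without IL-1β. Hoxa9 fell in both 36 h comparisons: it averaged 7.37 ± 0.236 FPKM in untreated co-culture and 8.98 ± 0.157 FPKM in untreated normal culture (SD, n = 3), a change of -0.25 ± 0.06 (adjusted p = 0.0044). Its change under IL-1β was -0.25 ± 0.06 (adjusted p = 0.00732). The call under IL-1β was lost without replicate 3 of co-culture with IL-1β at 36 h (adjusted p = 0.0522).

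At 72 h, Hoxa3 was at 0.87, 0.85 and 1.15 FPKM in co-culture with IL-1β, 1.12, 1.09 and 0.96 in untreated co-culture, 0.96, 0.98 and 1.14 in normal culture with IL-1β and 0.89, 0.92 and 1.45 in untreated normal culture. At 36 h, Hoxa3 was at 0.83, 0.97 and 1.04 FPKM in co-culture with IL-1β, 0.9, 0.94 and 0.83 in untreated co-culture, 1.39, 1.22 and 1.33 in normal culture with IL-1β and 1.87, 1.64 and 1.22 in untreated normal culture. Hoxa3, an anterior gene that acts in the throat and neck, was higher in the untreated normal cultures at 36 h than in the untreated co-cultures at that time. It changed in untreated co-culture at 36 h by -0.44 ± 0.10 (adjusted p = 0.00252), and its change at 72 h was -0.01 ± 0.10. Hoxc10 changed in untreated co-culture at 36 h by -0.17 ± 0.05 (adjusted p = 0.0293) and Hoxa10 by -0.17 ± 0.06 (adjusted p = 0.0498). Neither held after median-of-ratios scaling (adjusted p = 0.0703 and 0.0874), and the Hoxa10 call had a p at the threshold as fitted. The Hoxc10 call was lost without replicate 1 of untreated normal culture at 36 h (adjusted p = 0.18) and without replicate 1, 2 or 3 of untreated co-culture at 36 h (adjusted p = 0.072, 0.0815 and 0.0748). The Hoxa10 call was lost without replicate 1, 2 or 3 of untreated normal culture at 36 h (adjusted p = 0.198, 0.0741 and 0.078) and without replicate 1, 2 or 3 of untreated co-culture at 36 h (adjusted p = 0.122, 0.146 and 0.0764). Under IL-1β Hoxa11 changed at 36 h by -0.15 ± 0.04 (adjusted p = 0.0219). This call was lost when the compared groups alone were fitted (adjusted p = 0.0724) and without replicate 1 or 2 of normal culture with IL-1β at 36 h (adjusted p = 0.106 and 0.104) and without replicate 1 or 3 of co-culture with IL-1β at 36 h (adjusted p = 0.0748 and 0.0868). Of the 12 dermal fibroblast markers, 1 rose and 4 fell in untreated co-culture at 36 h (41.7%, against 15.5% of all genes). Their sums were 1018 to 1038 FPKM in untreated co-culture and 1204 to 1231 FPKM in untreated normal culture. The part of such cells was not tested.

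Whether the IL-1β change differed between co-culture and normal culture was tested as an interaction. None of the 21 HOX genes passed in limma at 72 h, beside 3.11% of all genes (1.68% higher, 1.43% lower), or at 36 h, beside 6.96% (4.73% higher, 2.23% lower), and 2 had an unadjusted p under 0.05 at each time. These were Hoxa10, with 0.19 ± 0.08 (adjusted p = 0.167), and Hoxa9, with 0.18 ± 0.08 (adjusted p = 0.228), at 72 h. At 36 h they were Hoxc12, with -0.47 ± 0.18 (adjusted p = 0.136), and Hoxc10, with 0.16 ± 0.07 (adjusted p = 0.208). Hoxa10 at 72 h had an adjusted p of 0.0426 without replicate 2 of normal culture with IL-1β at 72 h. Without that library Hoxa10 was also higher in co-culture than in normal culture under IL-1β at 72 h, by 0.18 (adjusted p = 0.0329).

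The partners and regulators of HOX genes were described from lists. All 9 genes of the PBX, MEIS and PREP families, which bind DNA together with HOX proteins, were tested. With IL-1β 1 rose and 4 fell at 72 h in normal culture and 3 rose and 6 fell at 36 h. Pknox2 (PREP2) changed by -0.90 ± 0.06 (adjusted p = 4.14e-12) at 72 h and -0.70 ± 0.06 (adjusted p = 1.84e-10) at 36 h in normal culture, and Pbx3 by -0.46 ± 0.07 and -0.65 ± 0.07. With time in untreated normal culture 1 of the 9 rose and 5 fell, with Pknox2 at -0.61 ± 0.06 (adjusted p = 3.35e-09). The median change of the 9 genes was -0.10 with IL-1β at 72 h, -0.38 at 36 h and -0.15 with time, beside -0.08, -0.09 and 0.03 for all genes. The shares that passed were 55.6% at 72 h, 100% at 36 h and 66.7% with time, beside 63.4%, 67.5% and 58.4% of all genes.

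Polycomb complexes keep HOX genes silent outside their domain, and trithorax proteins and demethylases oppose them. Of 26 polycomb genes, 5 rose and 11 fell with IL-1β in normal culture at 72 h, and likewise 5 and 11 at 36 h, with medians of -0.13 and -0.08 beside -0.08 and -0.09 for all genes. The 16 that passed are 61.5% of the list at each time, near the 63.4% and 67.5% of all genes. Ezh2, the methyltransferase of the complex, changed by -0.66 ± 0.09 (adjusted p = 7.2e-07) at 72 h and -1.27 ± 0.09 (adjusted p = 1.29e-11) at 36 h, and Phf19, an accessory subunit, by -0.83 ± 0.10 and -0.62 ± 0.10. With time in untreated normal culture 9 polycomb genes rose and 7 fell (61.5%, against 58.4% of all genes), among them Phf19 at 0.94 ± 0.10 (adjusted p = 2.33e-08), Ezh2 at 0.56 ± 0.09 (adjusted p = 9.17e-06) and Jarid2 at -0.59 ± 0.07 (adjusted p = 2.06e-07). Of the 12 trithorax and demethylase genes, 1 rose and 7 fell with IL-1β in normal culture at each time, with Psip1 at -0.72 ± 0.07 (adjusted p = 7.55e-09) at 72 h, and 4 rose and 2 fell with time in untreated normal culture. The shares that passed, 66.7% with IL-1β at each time and 50% with time, again lay near those of all genes.

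Retinoic acid is a known inducer of HOX genes in the embryo. Of 18 genes of retinoic acid handling and of the CDX and GDF11 signals, 15 were in the table and 12 were tested. With IL-1β in normal culture 4 rose and 4 fell at 72 h (66.7%, against 63.4% of all genes), and 5 rose and 4 fell at 36 h (75%, against 67.5%). Aldh1a2, which makes retinoic acid, rose by 1.39 ± 0.07 (adjusted p = 2.17e-13) at 72 h, and the related Aldh1a3 changed by -1.34 ± 0.07 (adjusted p = 1.07e-13). With time in untreated normal culture 3 rose and 5 fell, with Aldh1a2 at -3.02 ± 0.07 (adjusted p = 9.2e-19) and the binding protein gene Crabp2 at -1.53 ± 0.07 (adjusted p = 1.1e-13). Of 32 limb and skeletal patterning factors, 31 were in the table and 22 were tested, and with IL-1β in normal culture 5 rose and 14 fell at 72 h and 7 rose and 14 fell at 36 h. Pitx1 changed by -1.12 ± 0.06 (adjusted p = 1.73e-13) at 72 h and -1.07 ± 0.06 (adjusted p = 3.31e-13) at 36 h. Tbx4 changed by -0.56 ± 0.06 and -0.86 ± 0.06, and Tbx5 by -0.74 ± 0.07 and -0.63 ± 0.07. Tbx3 rose by 1.83 ± 0.05 and 1.59 ± 0.05. With time in untreated normal culture 11 rose and 5 fell. The median change of the 22 genes was -0.33 with IL-1β at 72 h, -0.24 at 36 h and 0.12 with time, beside -0.08, -0.09 and 0.03 for all genes. The shares that passed were 86.4%, 95.5% and 72.7%, beside 63.4%, 67.5% and 58.4% of all genes.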

How the data were processed

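RNA of 24 libraries, 3 in each of 8 groups, was sequenced after poly(A) selection with random priming, per the labels' protocols. The authors deposited 1 table of FPKM values, rounded to 2 decimals, for 17094 genes, and the build was GRCm38 per the submitters' processing notes. The aligner, counting tool, annotation and filters are not given in the sources used here. For 30 low genes with 412 values, 11.4% of the values came within 0.05 of a whole number of steps, against 10% by chance. Read counts were therefore not recovered, and no count test was run.

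Genes at 1 FPKM or more in at least 3 libraries (12178) were transformed to log2(FPKM + 1), which understates the change of low genes, and fitted with limma 3.58.1 (trended prior) in R 4.3.3, with 1 mean per group over all 24 libraries. P-values were adjusted by Benjamini and Hochberg over all genes tested in a comparison, and 0.05 was the threshold. Data were simulated for IL-1β at 36 h in normal culture (12178 genes, 200 changed, 5 draws). There, 68% of changes of 1.25-fold, 96.4% of 1.5-fold, 99.2% of 2-fold and 100% of 4-fold were recovered. Of the calls, 4.69% were false, and an unchanged comparison gave 0 calls. Each simulated gene had the same spread in every group, and far fewer genes were changed than passed in the data. These rates therefore do not carry over to the real comparisons, least of all those with IL-1β at 72 h, where the spread was wider. Gene positions came from GENCODE vM21 and promoter windows from RefSeq. Windows inside the span of their own gene were left out of those printed. The motif shares and CpG medians kept them, so the 22 HOX windows include a second Hoxa10 window that is not printed. Plots were made in Python 3.11 with matplotlib 3.10.9.

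Any HOX gene could be named, except that 1 HOX gene and 1 cofactor gene are counted but not reported singly here. Values in every library were given for the 3 most abundant genes of each cluster and, per comparison, up to 3 higher and 3 lower called genes with the largest change, and up to 4 called genes were named per pathway list. Hoxc12 in normal culture, the interaction genes and repeats of a named gene in another comparison go beyond this and were chosen after their values were seen. The genes, lists and comparisons were chosen with earlier results of these data known. Hoxb1, Hoxb13, Hoxd12 and 17 noncoding genes of the clusters were not analysed here.

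The alternatives were log2(FPKM + 0.1), no filter, a filter at 5 FPKM, rescaling to TPM, median-of-ratios scaling, a fit of just the groups compared, a block for replicate number (common to both times, or separate for each), each library left out in turn, and, added after the data were seen, weights per library. Same-numbered libraries were taken as paired where their deviations from the group means correlated above 0.1 for every number, which held for co-culture against normal culture under IL-1β at 72 h alone (0.364, 0.179 and 0.577).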

Additional observations from a re-analysis of the deposited data

Results flagged for a closer look

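For 6 HOX genes in normal culture and 5 in co-culture the test of the difference itself separated the IL-1β change at 72 h from that at 36 h. These are 28.6% and 23.8% of the 21 tested HOX genes, beside 45.4% and 28.8% of all genes tested. In normal culture the difference of log2(FPKM + 1), 72 h minus 36 h, was -1.05 for Hoxc13, -0.58 for Hoxc6, -0.56 for Hoxc8, -0.47 for Hoxa9, -0.42 for Hoxa10 and -0.18 for Hoxa11. In co-culture it was -0.86 for Hoxc13, -0.64 for Hoxc6, -0.45 for Hoxc8, -0.29 for Hoxa9 and -0.22 for Hoxa10. The co-culture and normal culture libraries are separate, but both sets of values come from 1 fit with a shared estimate of the spread. Same-numbered libraries of the 2 cultures under IL-1β at 72 h also deviated together (correlations of 0.364, 0.179 and 0.577). The 2 sets are therefore not independent. Hoxc13 and Hoxc6 had a positive IL-1β change at 36 h that did not pass at 72 h as fitted, Hoxc8 passed upward at 36 h and downward at 72 h, and Hoxa10 and Hoxa11 were lower with IL-1β at both times. The untreated cells changed with time too: Hoxc13 averaged 5.03 ± 0.219 FPKM at 72 h and 1.08 ± 0.125 FPKM at 36 h in untreated normal culture, while with IL-1β it averaged 5.50 ± 0.214 and 3.65 ± 0.129 FPKM (SD, n = 3).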

How the results depend on the processing

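Of 113 changes of single HOX genes that passed, 97 passed under each alternative run for them other than leaving out a library, 84 passed in each fit that left out 1 library of the groups compared and 82 in both kinds of fit, and none changed sign. The filter at 5 FPKM could test 68 of the 113. The block separate for each time was fitted for the 52 that are no comparison of times, since it absorbs the difference between times. With a filter at 5 FPKM, which left 9 HOX genes to test, the count was 4 in place of 7 for the co-culture IL-1β comparison at 72 h, 6 in place of 11 for IL-1β in normal culture at 36 h, and, for 72 h against 36 h, 9 in place of 16 in each normal culture, 8 in place of 15 in co-culture with IL-1β and 7 in place of 14 in untreated co-culture. With no filter, that same co-culture comparison gave 11 of 36. Median-of-ratios scaling gave 2 in place of 4 for untreated co-culture at 36 h. Weights per library, added after the data were seen, gave 10 in place of 6 for the difference in normal culture between the IL-1β change at 72 h and at 36 h, 4 in place of 2 for co-culture under IL-1β at 36 h and 3 in place of 0 for untreated co-culture at 72 h. Apart from the filter's effect on the number of genes tested, the cause was not tested.

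Leaving out 1 library gave 2 to 3 calls for untreated co-culture at 36 h (2 without replicate 1 of untreated normal culture or any replicate of untreated co-culture), 0 to 2 for co-culture under IL-1β at 36 h (0 without replicate 3 of co-culture, and 1 without its replicate 1 or without replicate 1 or 2 of normal culture), 0 to 1 for co-culture under IL-1β at 72 h (Hoxa10 without replicate 2 and Hoxb9 without replicate 3 of normal culture with IL-1β) and 0 to 1 for the interaction at 72 h (Hoxa10 without replicate 2 of normal culture with IL-1β). The other 12 counts stayed within 1.5 times.

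With the replicate number as a block, co-culture under IL-1β at 72 h, the comparison whose numbers paired the libraries, gave 0 calls, as without the block. In the other comparisons the libraries share only a number: the block over all libraries gave 3 calls for untreated co-culture at 36 h against 4, and moved no count by over 1.5 times. It ended 4 calls, with an adjusted p of 0.0525 for Hoxa10 there, 0.0506 for Hoxc4 with time in untreated co-culture, and 0.0547 and 0.0528 for Hoxc6 with time under IL-1β in co-culture and normal culture.

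Rescaling to TPM shifted the median change of all genes with IL-1β at 72 h in normal culture to -0.20 from -0.08, and the share of calls that were higher was 23.6% after it, 48.2% after median-of-ratios scaling and 36.4% as reported; in co-culture at 72 h it was 23.9%, 46.9% and 37.6%. For co-culture against normal culture, median-of-ratios scaling gave shares of 54% in place of 40.6% (untreated, 36 h), 62.2% in place of 50.7% (untreated, 72 h) and 43.7% in place of 57.8% (IL-1β, 72 h), and 29.6% in place of 54.1% for the interaction at 72 h. TPM gave 37.1% for untreated co-culture at 72 h and 65.6% for that interaction. HOX genes of 1 to 3 FPKM lie near the range where log2(FPKM + 1) compresses changes, and the unknown depth limits statements about them.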
